A study of Danio rerio with 14 samples.

Results

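The wild-type H libraries of zebrafish intestine were compared with the wild-type M libraries, 8 of the 14 poly-A RNA libraries of a study of an agouti transgene. The members were chosen by their labels, and no expression value entered the choice. The H group held 4 libraries, H5, H6, H7 and H8, and the M group held 4, M1, M2, M3 and M4, each named by the number in its title. All 8 came from the intestine of Danio rerio of the Tubingen strain and carry no transgene in their labels. The 6 libraries outside this comparison, 3 H and 3 M, carry Tg(Xla.Eef1a1:Cau.Asip1)iim04, in which the Xla.Eef1a1 promoter drives Cau.Asip1. The labels do not explain the letters H and M, and give no sex, age, treatment, dissection or batch. Whether each library is a different fish is not stated, so a p-value measures the spread between these libraries, which may be technical.

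The teleost intestine is lined by absorptive enterocytes, which digest peptides and sugars at their brush border and pack dietary lipid into lipoproteins. Lysosome-rich enterocytes further down take up whole protein. The zebrafish gut lies beside the liver, a diffuse pancreas and the gonads. In egg-laying fish the yolk precursors, the vitellogenins, are made in the liver under estrogen. In zebrafish the zona pellucida genes of the egg coat and the maternal messengers of the egg are transcribed in the oocyte. In a bulk library, fewer cells of a type and less RNA per cell cannot be told apart.

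The H libraries differed in how far they stood from the M libraries, and 3 of the 4 held transcripts that the M libraries nearly lacked. H6, H7 and H8 contained egg coat and oocyte messengers, highest in H6 and lowest in H8. H8 alone held vitellogenin messengers in quantity. H6 and H7 were also low in messengers of the absorptive enterocyte. H5 lay within or just above the M range in the shares of oocyte, vitellogenin and enterocyte messengers. Its egg coat share was above the M range and far below that of H6, H7 and H8. No gene was called between the letters by edgeR's quasi-likelihood test. In it every tested gene named below had a Benjamini-Hochberg adjusted p between 0.452 and 0.965 over all genes, leaving aside RBP2 (ENSDARG00000070038). Levels are therefore given for each library, and fold changes as values.

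Total counts ranged from 10064013 to 13276346 in the H libraries and from 9847910 to 13727372 in the M libraries. Levels are in CPM, the number of counts per 1000000 counts of a library after scaling. Across the 16608 tested genes, the Spearman correlation with the M libraries was 0.915 to 0.959 for H5, 0.504 to 0.54 for H6, 0.776 to 0.808 for H7 and 0.901 to 0.924 for H8. The M libraries correlated with each other at 0.886 to 0.957, H5 with H8 at 0.924, H6 with H7 at 0.762, and H6 with H5 and H8 at 0.51 and 0.6. These coefficients run over genes, which are not independent replicates, and carry no test. H6 and H7 stood apart from the other 6 wild-type libraries, so medians of gene groups are also given without both of them.

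The same order appeared in the number of genes far outside the M range. A gene was counted as above for a library when it reached 5 CPM there and was at least 8-fold above the highest M library, after adding 0.5 CPM to both. This held for 4 genes in H5 (0.0123% of the 32520 in the table), 1331 in H6 (4.09%), 300 in H7 (0.923%) and 202 in H8 (0.621%). Each M library, set against the other 3 in the same way, had 3 to 17 such genes. Of the 300 genes of H7, 288 were also among the 1331 of H6. Of the 202 genes of H8, 187 were shared by H6, H7 and H8, and 0 genes were shared by all 4 H libraries.

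In the other direction, 4 genes in H5 (0.0123%), 1185 in H6 (3.64%), 209 in H7 (0.643%) and 23 in H8 (0.0707%) were at least 8-fold below the lowest M library, where that library had 5 CPM or more. H6 and H7 shared 187 of these genes, and H6, H7 and H8 shared 2. Among the M libraries, M2 had the most genes below the other 3, with 77.

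**Figure D1:**
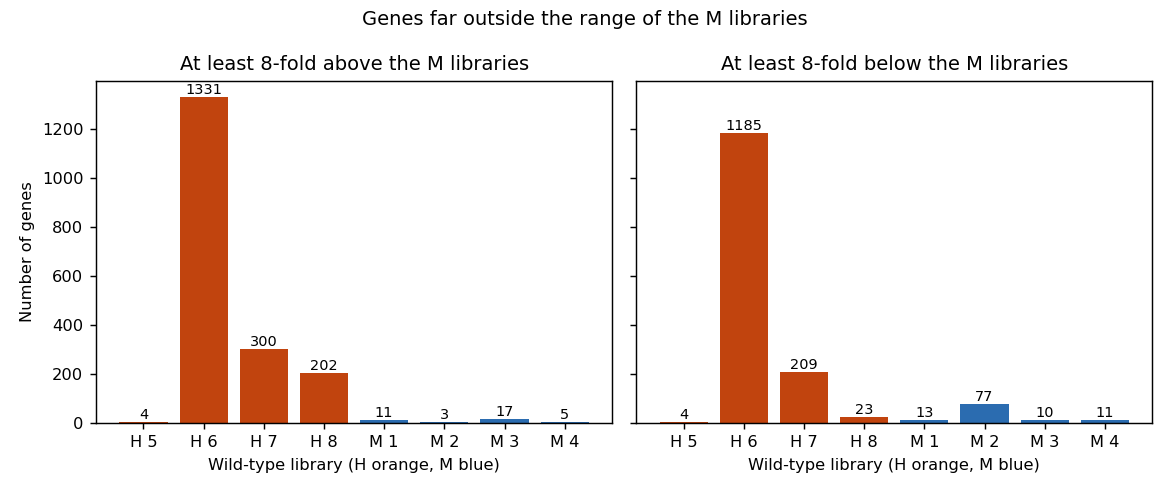
Number of genes in each wild-type library at least 8-fold above (left panel) or below (right panel) the M libraries, with H libraries in orange and M libraries in blue. H6 had 1331 genes above and 1185 below, H5 had 4 and 4, and each M library was set against the other 3.

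The gene-wise comparison asked which genes differ between the letters in intestines without the transgene. Of 16608 genes tested with edgeR, 0 were higher in H and 0 lower at an adjusted p under 0.05 (0% in each direction), and the smallest adjusted p was 0.452. At an unadjusted p under 0.05 there were 1519 genes higher in H (9.15%) and 306 lower (1.84%), together 11%. DESeq2's Wald test called 291 higher (1.75%) and 48 lower (0.289%) on the same counts. Of the 291 genes that it called higher, 281 had their highest H level in H6, and the H and M libraries did not overlap in 88. Of its 48 lower calls, 28 had their most extreme H level in H6, and 38 had no overlap. Of all tested genes, 2.46% were higher in H without overlap and 3.75% lower. A call favours genes that separate, so these counts are a description. Limma-voom with quality weights called 0 genes, with a smallest adjusted p of 0.0948, and had 995 genes higher (5.99%) and 1061 lower (6.39%) at an unadjusted p under 0.05, 12.4% together.

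Which H library was left out decided the count in edgeR. Without H5, 160 genes were called higher (0.921% of 17375 tested) and 4 lower (0.023%), and the other 7 fits that left out 1 library called 0. All 160 had their levels in the order H6, H7, H8, from high to low. Of them, 149 were below 1 CPM in every M library, 29 were in the egg coat or oocyte lists, and 31 had passed the filter on low counts when H5 was included. The others had not, because the filter asks for fewer libraries once 1 is left out, whichever library it is. The counts are therefore a description. Without both H6 and H7, 0 of 17437 genes were called (0%) and the smallest adjusted p was 0.646. At an unadjusted p under 0.05 that fit had 477 genes higher in H (2.74%) and 507 lower (2.91%), 5.64% together.

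The levels of the H and M libraries did not overlap for 409 genes higher in H (2.46% of those tested) and 623 lower (3.75%), 6.21% in all. Among the transgenic libraries, 572 genes were higher in H without overlap (3.44%) and 816 lower (4.91%). That split was 3 against 3 libraries and the wild-type split 4 against 4. Fewer libraries separate more easily, so the percentages of the genotypes cannot be compared. The letters separated the same way in both genotypes for 21 genes higher in H (0.126%) and 13 lower (0.0783%). They separated in opposite ways for 35 genes that were higher in wild-type H (0.211%) and 19 that were lower (0.114%).

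Genes were grouped in 40 lists by tissue, cell type or process. Over all tested genes, 52.9% had a positive log2 fold change (H over M), and the median was 0.06 with all libraries and -0.01 without H6 and H7. Each list is described by the same count and medians. From each list up to 2 tested members are given, from those with the smallest unadjusted p, and every other gene named was chosen after its values were seen. Members are also counted as above or below every M library. Over the 19789 genes that reached 1 CPM in any wild-type library, 21.9% were above every M library in H5, 42.5% in H6, 37.9% in H7 and 24.4% in H8. The shares below every M library were 19.5% in H5, 40.8% in H6, 30.9% in H7 and 20.2% in H8. In the heat map of lists by library, H5 stayed within 1.17 log2 units of the M libraries, whereas H6 departed in both directions.

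**Figure D2:**
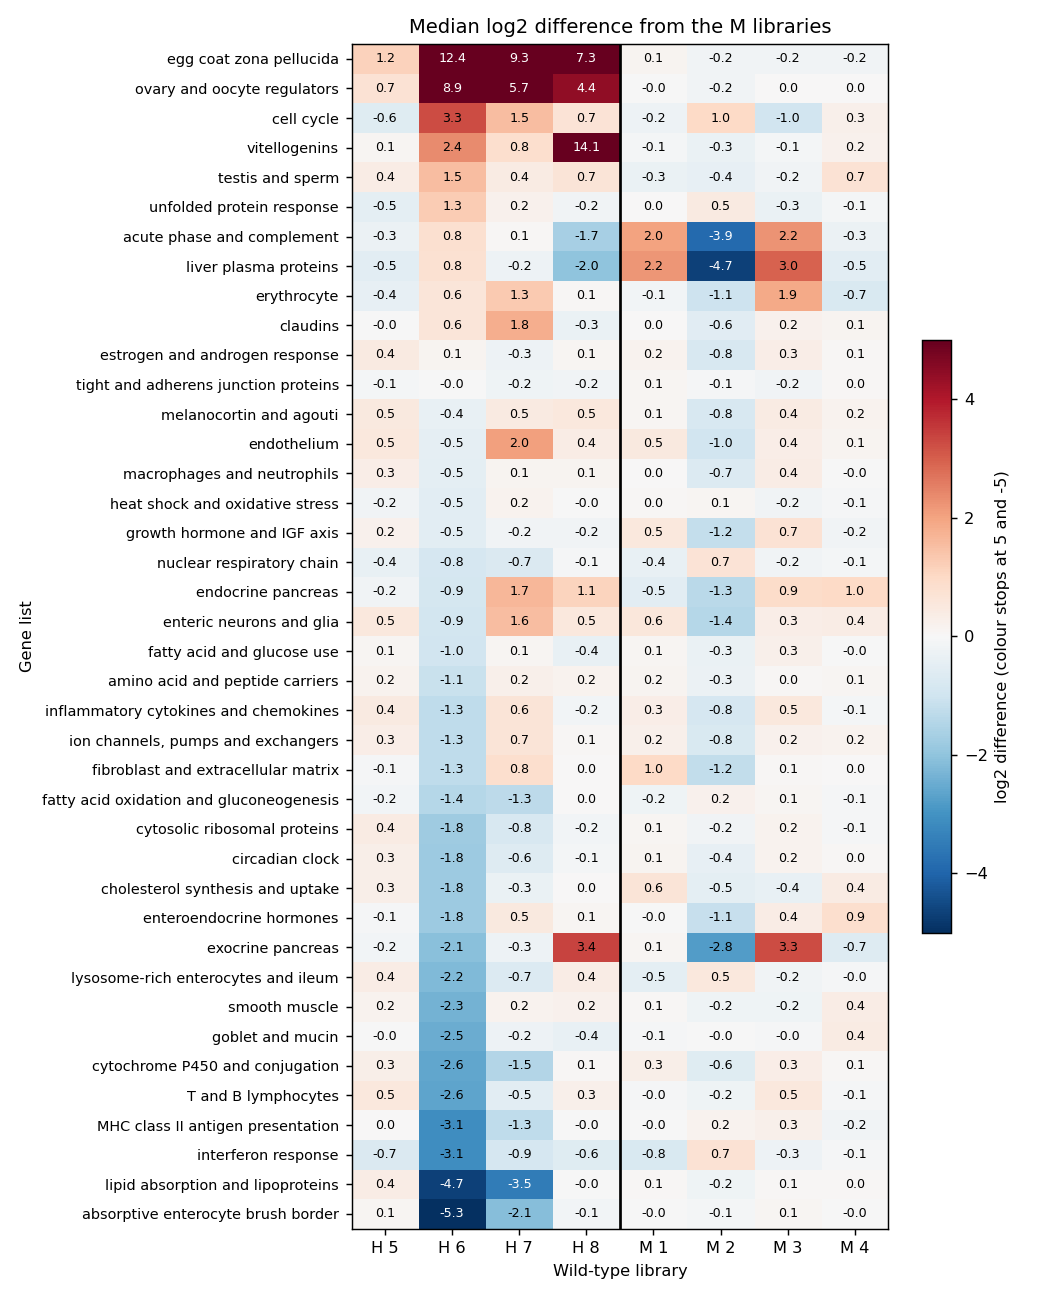
Heat map of the median log2 difference of each gene list (down) in each wild-type library (across), with the 4 H libraries left of the black line. An H library is set against the mean of the 4 M libraries and an M library against the mean of the other 3, over list members that reached 1 CPM in any library. The egg coat list read 1.17, 12.38, 9.31 and 7.34 in H5 to H8, and the brush border list 0.09, -5.32, -2.14 and -0.13.

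Egg coat genes were abundant in H6, H7 and H8 and scarce in the other libraries. The list held 18 zona pellucida genes, which encode the glycoproteins of the envelope around the fish egg. Together they took 0.000618, 1.98, 0.363 and 0.0866% of counts in H5 to H8, against 0.000138, 0.0000582, 0.0000301 and 0.0000812% in M1 to M4. The 95% exact binomial interval was 1.97 to 1.99% in H6, 0.359 to 0.367% in H7 and 0.085 to 0.0882% in H8. H5 had 64 egg coat counts, an interval of 0.000476 to 0.000789%, and the M libraries had 4 to 19, with upper bounds of at most 0.000216%. Such intervals cover counting error only, and for every list share resting on at least 1000 counts they stayed within 6.24% of the share.

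Single members showed the same steps. The zona pellucida gene zp3a.2 (ENSDARG00000042130) stood at 1.81, 2823, 328 and 128 CPM in H5 to H8, against 0.314, 0, 0.0898 and 0.101 CPM in M1 to M4. Its log2 fold change was 12.48 ± 2.36 (SE, edgeR adjusted p = 0.452), and 8.80 without H6 and H7. The H and M libraries did not overlap, with H5 the lowest H library by a wide margin. It was the 1 egg coat gene to pass the filter on low counts, which asked for reads in at least 4 libraries. Its relative zp3b, which did not pass that filter, read 0.907, 2995, 355 and 142 CPM in the H libraries, against 0.236, 0.2, 0.18 and 0.507 CPM in the M libraries.

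The egg envelope genes zpax1 and zpax4, which are outside the list, took more counts in H6 than any list member. Zpax1 reached 2.15, 7168, 748 and 254 CPM in H5 to H8, against 0.943, 0.599, 0.629 and 0.71 CPM in M1 to M4. Zpax4 reached 1.7, 4996, 514 and 181 CPM in the H libraries, against 0.0786, 0, 0 and 0 CPM in the M libraries. In both, H6 was about an order of magnitude above H7, and H5 was the lowest H library but above every M library.

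Oocyte regulators had the same pattern. Of the 39 genes in the list of oocyte and ovary regulators, 7 were tested with all 8 libraries, 6 of these had a positive log2 fold change, and the median was 5.15 (1.74 without H6 and H7). Members passed the filter in part through the libraries where they were high, so this median describes the tested members alone. The value of 5.15 is that of CCNB1, which is also in the cell cycle list. The list took 0.0151, 1.43, 0.271 and 0.0753% of counts in H5 to H8, against 0.01, 0.011, 0.00944 and 0.0133% in M1 to M4. H5 lay just above the M range, and H6, H7 and H8 well above it.

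Buc organises the Balbiani body of the early oocyte (ENSDARG00000096095), and it read 0.793, 2122, 225 and 91.1 CPM in H5 to H8, against 0.707, 0.999, 1.08 and 0.913 CPM in M1 to M4. H5 lay inside the M range for this gene, and the other H libraries lay far above it (log2 fold change 9.35 ± 2.04, edgeR adjusted p = 0.452, DESeq2 adjusted p = 5.39e-10). RBPMS2 (ENSDARG00000079578), an RNA-binding protein that works with Buc in zebrafish oocytes, read 8.05, 591, 74.6 and 28.9 CPM in the H libraries, against 4.63, 3.2, 4.67 and 4.56 CPM in the M libraries. CPEB1, a regulator of maternal messenger translation, read 0.34, 1765, 175 and 59.96 CPM in H5 to H8, against at most 0.157 CPM in an M library. The linker histone of the oocyte, h1m, read 0.227, 1585, 155 and 79.8 CPM in H5 to H8, against at most 0.0786 CPM in an M library. ZAR1, needed for the egg-to-embryo transition, read 1.02, 1125, 128 and 47.9 CPM in H5 to H8, against at most 0.304 CPM in an M library. The order H6, H7, H8 held in each of these 5 genes, and H5 was the lowest H library, above the M range in all but buc.

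Germ-cell and growth factor genes were lower in level but alike in order. The germ-cell RNA helicase DDX4 read 0.34, 202, 16.03 and 8.95 CPM in H5 to H8, against at most 0.304 CPM in an M library. The germ-cell RNA-binding protein DAZL read 0.227, 169, 13.5 and 7.31 CPM in H5 to H8, against at most 0.0786 CPM in an M library. GDF9, a growth factor secreted by the oocyte, read 0, 64.9, 5.91 and 1.72 CPM in H5 to H8, against at most 0.0786 CPM in an M library. Its partner bmp15 read 0.567, 179, 19.97 and 7.23 CPM in H5 to H8, against 0.314, 0.399, 0.718 and 0.304 CPM in M1 to M4, so a low level was present in every M library.

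The claudins cldnd and cldng, members of the oocyte list, had the same order. That list was written with earlier results of these data known, so their membership is not independent of them. Cldnd read 0.34, 1172, 168 and 66.7 CPM in H5 to H8, against at most 0.236 CPM in an M library. Cldng read 0.453, 1117, 145 and 49.0 CPM in H5 to H8, against at most 0.101 CPM in an M library. Chia.4, of the acidic chitinase family, read 0.453, 1282, 133 and 47.4 CPM in H5 to H8, against at most 0.406 CPM in an M library, unlike its abundant relatives in the gut described below.

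The proportions between libraries were described for genes picked by their levels in H6, H7, H8 and the M libraries. Of the egg coat genes, 16 had at least 5 CPM in H6, H7 and H8 and under 1 CPM in every M library. Among them the H6 level was a median of 8.39 times the H7 level (6.74 to 9.73), and the H7 level a median of 2.74 times the H8 level (1.87 to 5.31). Among the 16 oocyte regulators that met the same conditions, the medians were 9.52 (6.74 to 12.6) and 2.63 (1.79 to 4.1). The egg coat gene zp2.1 was in both lists, so the sets are not fully separate. The floor of 5 CPM limits how far the ratios can spread. They therefore describe these members in 3 libraries and carry no test.

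The steroid synthesis genes CYP11A1 and CYP17A1 had the same order. CYP11A1 (ENSDARG00000002347), which makes pregnenolone from cholesterol, read 0.567, 301, 32.0 and 12.98 CPM in H5 to H8, against 0 to 0.406 CPM in the M libraries. CYP17A1, an enzyme on the way to androgens, read 0, 190.0, 19.7 and 5.996 CPM in H5 to H8, against at most 0.101 CPM in an M library. The gene annotated CYP19A1, aromatase, had 0 counts in all 8 libraries.

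Among testis genes, DMRT1, a factor of the male gonad, had at most 0.0996 CPM in an H library and 0 CPM in every M library. Amh, a hormone of Sertoli and granulosa cells, had at most 0.0703 CPM in an H library and 0.359 CPM in an M library. The testis and sperm list had 4 tested members of 26, 1 with a positive log2 fold change, and a median of -0.54 (-0.58 without H6 and H7). The list also held CYP11A1 and CYP17A1, which were highest in H6 and did not pass the filter with all libraries. Of its 13 members that reached 1 CPM in any library, 4 in H5, 8 in H6, 5 in H7 and 6 in H8 were above every M library, against 21.9, 42.5, 37.9 and 24.4% of all such genes. Their median log2 difference was 0.39, 1.52, 0.42 and 0.66 in H5 to H8, against -0.33, -0.40, -0.18 and 0.71 in M1 to M4. Its member SOX9 (ENSDARG00000003293), also an intestinal epithelial gene, read 3.63, 0.498, 3.73 and 2.55 CPM in H5 to H8, against 6.44, 16.2, 6.02 and 8.32 CPM in M1 to M4, without overlap (log2 fold change -1.82 ± 0.63). HSD17B3, which makes testosterone, read 1.13, 2.39, 2.18 and 1.23 CPM in the H libraries, against 0.628, 0.499, 0.718 and 1.12 CPM in the M libraries, again without overlap but with H5 and M4 almost equal.

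**Figure D3:**
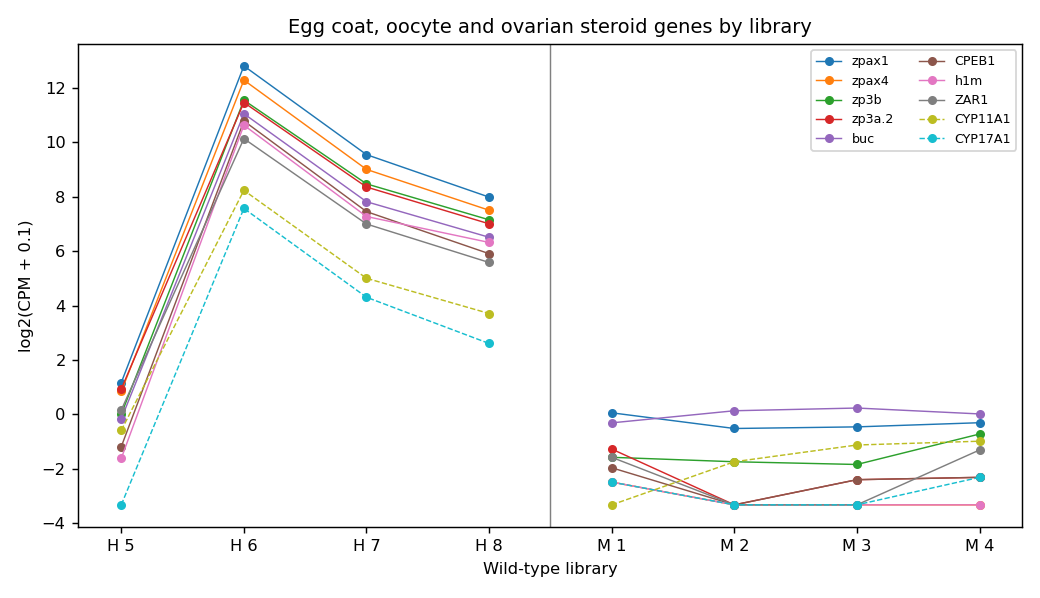
Levels of 10 egg coat, oocyte and steroid synthesis genes in each wild-type library, as log2 of CPM plus 0.1, with the steroid genes dashed and the 4 H libraries left of the grey line. The lines run nearly parallel over H6, H7 and H8, and H5 is the lowest H library in each.

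Vitellogenins set H8 apart. The 8 vitellogenin genes, whose products the liver exports as yolk precursor, took 0.0000965, 0.00201, 0.000547 and 6.18% of counts in H5 to H8, against 0.0000583, 0.0000873, 0.0000978 and 0.000132% in M1 to M4. The 95% exact binomial interval in H8 was 6.17 to 6.19%. H6 had 217 vitellogenin counts and H7 55, against 8 to 13 in an M library. None of the 8 genes passed the filter with all 8 libraries, so none has a fold change.

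Vtg1 read 0.113, 11.7, 0.844 and 40547 CPM in H5 to H8, against 0 CPM in M1, M2 and M3 and 0.507 CPM in M4. Vtg2 read 0, 1.2, 0.0703 and 8702 CPM in H5 to H8, against 0 CPM in every M library. Vtg8, the lowest of the family in H8, read 0.453, 0.199, 0.914 and 5.91 CPM in H5 to H8, against 0.314, 0.799, 0.18 and 0.101 CPM in M1 to M4. Per kilobase of gene model, vtg1 led in H8 at 8824 CPM, followed by vtg2 at 1740 CPM and vtg4 at 1236 CPM per kilobase. Vtg5 stood at 1154, vtg6 at 833, vtg7 at 679, vtg3 at 242 and vtg8 at 1.26 CPM per kilobase. Counting can split reads between these near-identical paralogs, so levels of single vitellogenins are uncertain.

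Vitellogenin and egg coat levels did not run in parallel. H6 had the most egg coat counts and almost no vitellogenin, and H8 had the most vitellogenin and the fewest egg coat counts of H6, H7 and H8. ESR1, the estrogen receptor that induces vitellogenin in fish liver, read 1.93, 1.99, 2.46 and 10.7 CPM in H5 to H8, against 1.49, 0.999, 2.24 and 1.32 CPM in M1 to M4. H8 was above every other library, H7 just above the M range, and H5 and H6 inside it (log2 fold change 1.49 ± 0.67, edgeR adjusted p = 0.452). The aspartic protease gene nots, known from female zebrafish liver, read 0, 0.598, 0.0703 and 142 CPM in H5 to H8, against at most 0.0999 CPM in an M library. Other liver messengers were not high in H8, where fabp10a, the liver fatty acid carrier, read 64.5 CPM, against 24.5 to 1726 CPM in the M libraries. The list of estrogen and androgen response genes had 20 tested members, 11 with a positive log2 fold change, and a median of 0.17 (0.24 without H6 and H7).

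The transgenic H libraries held vitellogenins at 18.2, 7.95 and 21.0% of counts, against 0.0000977, 0.00104 and 0.000375% in transgenic M. Their egg coat share was 0.0312, 0.000297 and 0.0000852% in transgenic H, against 0.0000896, 0.0000703 and 0.0000667% in transgenic M. All 3 transgenic H libraries thus exceeded H8 in vitellogenin, and 1 of them held egg coat counts above the level of H5.

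**Figure D4:**
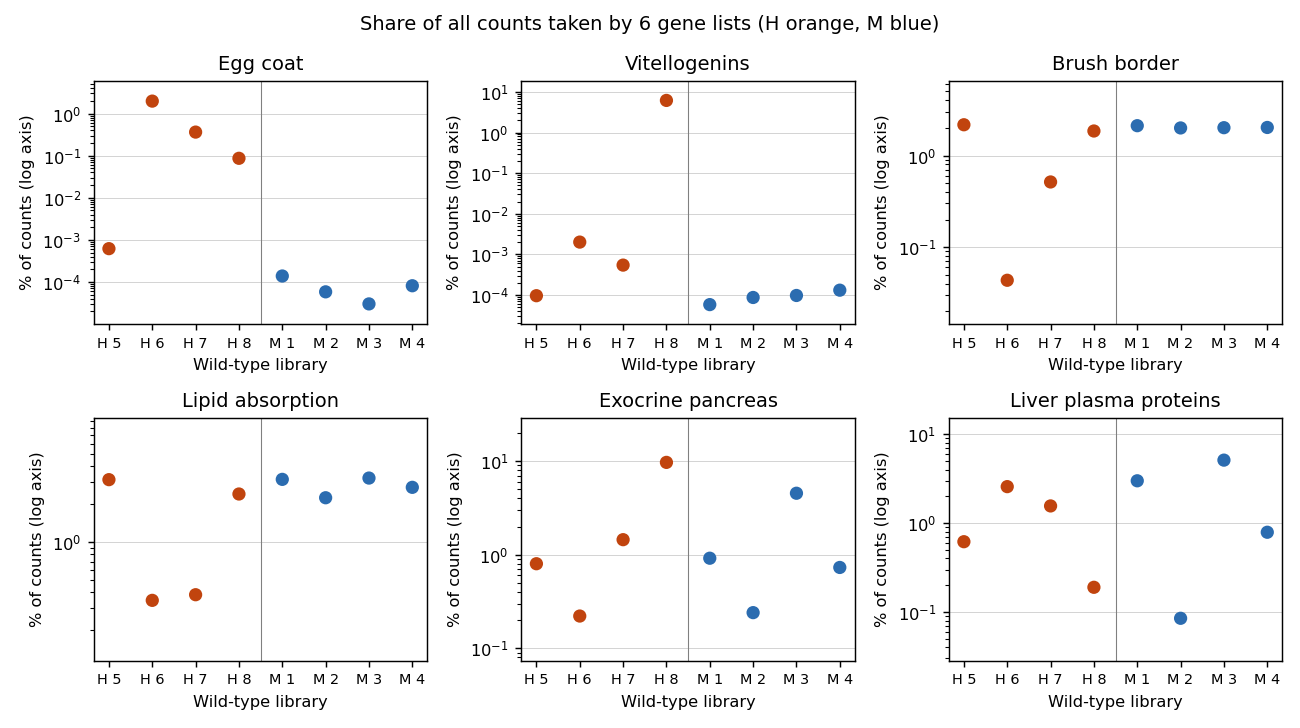
Share of all counts, in percent on log axes of differing range, of 6 gene lists in each wild-type library, with H in orange left of M in blue. The egg coat list reached 1.98% in H6, the vitellogenins 6.18% in H8, and the brush border list stood at 0.0435% in H6 and 0.514% in H7.

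Cell cycle genes were high in H6 and H7. Of 35 tested members, 29 had a positive log2 fold change and 15 were higher at an unadjusted p under 0.05, against 9.15% of all genes, and the median was 1.68, against 0.02 without H6 and H7. The list took 0.077, 0.989, 0.335 and 0.155% of counts in H5 to H8, against 0.0992, 0.177, 0.086 and 0.147% in M1 to M4. H5 lay below every M library, H8 inside the M range, and H6 and H7 above it.

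CCNB1, cyclin B1 of the mitotic and meiotic kinase, read 6.35, 1402, 181 and 58.3 CPM in H5 to H8, against 9.27, 19.7, 5.12 and 12.3 CPM in M1 to M4 (log2 fold change 5.15 ± 1.46, 1.49 without H6 and H7). CCNB2 read 0.68, 932, 93.2 and 44.7 CPM in the H libraries, against 1.57, 5.29, 1.17 and 2.13 CPM in the M libraries (log2 fold change 6.72 ± 1.79). The germline cyclin CCNA1 had 0.567, 1321, 160.0 and 52.6 CPM in H5 to H8, and no count in any M library. These cyclins had the H6, H7, H8 order of the oocyte genes, and CCNB1 was itself in the oocyte list. The part of oocyte messengers in the cell cycle result was not tested.

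The unfolded protein response list, chaperones and sensors of the endoplasmic reticulum, had 30 tested members, 21 with a positive log2 fold change and a median of 0.38 (-0.31 without H6 and H7). H6 was above the M range in 21 of 30 members, against 42.5% of all genes, whereas H5 was below it in 21, against 19.5%. The chaperone HSPA5 read 232, 3723, 759 and 446 CPM in H5 to H8, against 457, 645, 279 and 387 CPM in M1 to M4. The sensor kinase EIF2AK3 read 21.8, 212, 35.4 and 29.0 CPM in the H libraries, against 21.2, 21.4, 22.2 and 20.5 CPM in the M libraries, with H6 far above all others. The stress factor DDIT3 read 24.1, 10.4, 19.5 and 31.0 CPM in the H libraries, against 38.8, 30.3, 39.1 and 31.0 CPM in the M libraries, with H6 the lowest library.

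The heat shock and oxidative stress list (32 tested, 13 positive) had a median of -0.19 (-0.11 without H6 and H7). Gpx1b, a glutathione peroxidase, read 782, 36.7, 564 and 488 CPM in H5 to H8, against 1379, 1756, 911 and 1303 CPM in M1 to M4. SRXN1, a peroxiredoxin repair enzyme, read 1.81, 0.598, 1.69 and 1.89 CPM in the H libraries, against 2.91, 2.1, 2.16 and 4.16 CPM in the M libraries. Both were lower in every H library than in any M library, and H6 was the lowest.

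Messengers of the absorptive enterocyte were scarce in H6 and low in H7. The brush border list, digestive enzymes and carriers of that cell, took 2.17, 0.0435, 0.514 and 1.85% of counts in H5 to H8, against 2.12, 1.999, 2.01 and 2.02% in M1 to M4. Of 25 members that reached 1 CPM, 22 in H6 and 21 in H7 were below every M library, and 3 in H5 and 12 in H8. The shares of all genes were 40.8% in H6, 30.9% in H7, 19.5% in H5 and 20.2% in H8. Over the list, 3 of 23 tested members had a positive log2 fold change, and the median was -0.65, against 0.13 without H6 and H7. The library labelled H6 therefore held few messengers of absorptive enterocytes, although its tissue label is intestine.

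VIL1, villin of the microvillus core, read 2334, 136, 978 and 2282 CPM in H5 to H8, against 2341, 3310.5, 2304 and 2512 CPM in M1 to M4. The fatty acid carrier FABP2 read 2098, 6.08, 22.7 and 1671 CPM in H5 to H8, against 648, 1222, 1058 and 1246 CPM in M1 to M4, so that H5 and H8 were above the M libraries and H6 and H7 far below. SLC5A1, the sodium-glucose carrier, read 2209, 14.7, 345 and 1741 CPM in H5 to H8, against 3988, 4671, 2749 and 3906 CPM in M1 to M4, lower in every H library than in any M library. The fructose carrier SLC2A5 read 229.6, 0, 0.562 and 114 CPM in H5 to H8, against 293, 274, 208 and 297 CPM in M1 to M4, with H5 inside the M range and the other H libraries below it.

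The brush border members with the smallest p-values were SLC2A2 and ESPN. SLC2A2, the basolateral glucose carrier, read 141, 18.4, 31.4 and 105 CPM in H5 to H8, against 206, 179, 191 and 171 CPM in M1 to M4, without overlap (log2 fold change -1.33 ± 0.60). ESPN, an actin bundler of microvilli, read 1.59, 0.0996, 1.2 and 0.329 CPM in the H libraries, against 2.12, 2.3, 2.16 and 1.83 CPM in the M libraries, also without overlap.

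Some of the most abundant gut messengers were nearly missing from H6 and H7. The acidic chitinase gene chia.1 read 18739, 0.996, 17.9 and 18569 CPM in H5 to H8, against 25808, 17357, 28186 and 19886 CPM in M1 to M4. Its relative chia.2 read 20969, 0.398, 2.67 and 8395 CPM in the H libraries, against 11778, 11228, 13510.0 and 12542 CPM in the M libraries. In both chitinase genes H5 and H8 lay within or near the M range, whereas H6 was the lowest library. Apobb.1, the core protein of chylomicron-like particles, read 13235, 390.3, 319 and 9033 CPM in H5 to H8, against 10320.4, 7379, 12997 and 9660.0 CPM in M1 to M4. The apolipoprotein gene apoea read 3944, 0.0996, 1.97 and 2491 CPM in the H libraries, against 2614, 3366, 2919 and 3333 CPM in the M libraries, with H6 at the level of a single count.

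Lipid absorption and lipoprotein genes took 3.11, 0.345, 0.382 and 2.39% of counts in H5 to H8, against 3.12, 2.24, 3.2 and 2.7% in M1 to M4. Of 35 tested members 2 had a positive log2 fold change, and the median was -0.70 with all libraries and 0.17 without H6 and H7, so its sign rested on those libraries. RBP2 (ENSDARG00000093774), a retinol carrier, read 3.63, 7.97, 4.43 and 6.08 CPM in H5 to H8, against 35.3, 1.6, 77.0 and 6.8 CPM in M1 to M4, with M1 and M3 far above the rest. A more abundant gene of the same name, RBP2 (ENSDARG00000070038), read 2.69 CPM in H6 and 4.85 CPM in H7. The M libraries held it at 1243 to 1583 CPM. It is given by these levels alone. Fabp1b.2, a fatty acid carrier, read 1.7, 0.299, 0.352 and 0.657 CPM in the H libraries, against 2.12, 2.3, 1.62 and 1.52 CPM in the M libraries.

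Amino acid and peptide carriers (38 tested, 22 positive) had a median of 0.15 (0.14 without H6 and H7). SLC43A1 (ENSDARG00000037393), a carrier of large neutral amino acids, read 8.39, 133, 31.0 and 19.2 CPM in H5 to H8, against 8.95, 10.3, 7.27 and 11.5 CPM in M1 to M4. SLC7A6, a light chain of cationic amino acid exchange, read 5.89, 47.4, 27.2 and 7.72 CPM in the H libraries, against 4.56, 2.5, 8.53 and 4.97 CPM in the M libraries. H6 and H7 were the highest libraries in both genes. Over the list, H6 was above every M library in 12 of 42 members and below in 23. The shares of all genes were 42.5% above and 40.8% below.

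Cytochrome P450 and conjugation genes (36 tested, 8 positive) had a median of -0.55 (0.06 without H6 and H7). The cytochrome P450 gene cyp2p6 read 116, 9.36, 35.9 and 111 CPM in H5 to H8, against 391, 58.1, 118 and 299 CPM in M1 to M4. The glutathione transferase gene gstt1a read 16.9, 7.97, 3.59 and 5.01 CPM in the H libraries, against 40.7, 0.899, 187 and 24.3 CPM in the M libraries, so that M2 was below and M3 far above all other libraries.

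Fatty acid oxidation and gluconeogenesis genes had lower values in H in most members. Of 31 tested, 3 had a positive log2 fold change, with a median of -0.55, or -0.07 without H6 and H7. Cpt1ab, of the enzyme that admits fatty acids to mitochondria, read 54.5, 7.37, 55.3 and 75.7 CPM in H5 to H8, against 117, 219.7, 85.5 and 155 CPM in M1 to M4. ACADVL, the very-long-chain acyl-CoA dehydrogenase, read 213, 107, 125 and 255 CPM in the H libraries, against 319, 307, 293 and 306 CPM in the M libraries. Neither gene overlapped between the letters, and H6 was the lowest library in both.

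Fatty acid and glucose use genes (29 tested, 14 positive) had a median of -0.09 (-0.11 without H6 and H7). H6 was above every M library in 10 of 32 members and below in 17. The shares of all genes were 42.5% above and 40.8% below. The desaturase SCD read 8.16, 38.4, 39.4 and 5.996 CPM in H5 to H8, against 5.42, 1.2, 5.75 and 4.16 CPM in M1 to M4, with H8 just above the highest M library. The fatty acid synthase FASN read 12.4, 196, 83.9 and 14.05 CPM in the H libraries, against 19.7, 9.19, 19.3 and 15.2 CPM in the M libraries, high in H6 and H7 alone.

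Cholesterol synthesis and uptake genes (29 tested, 7 positive) had a median of -0.26 (0.14 without H6 and H7). MVK, mevalonate kinase, read 7.25, 31.1, 12.02 and 8.62 CPM in H5 to H8, against 8.56, 6.99, 2.96 and 5.38 CPM in M1 to M4. H6 was the highest library for it. Over the list, however, H6 was above every M library in 4 of 29 members and below in 24. The shares of all genes were 42.5% above and 40.8% below.

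Nuclear genes of the respiratory chain had negative medians with and without H6 and H7. Of 46 tested members, 1 had a positive log2 fold change, and the median was -0.46 (-0.22 without H6 and H7). H5 was below every M library in 28 of 46 members, H6 in 40, H7 in 43 and H8 in 4. The shares of all genes were 19.5, 40.8, 30.9 and 20.2%. NDUFB10, of complex I, read 58.9, 38.5, 41.1 and 62.6 CPM in H5 to H8, against 73.4, 145, 64.1 and 79.8 CPM in M1 to M4. COX7A2 (ENSDARG00000110700), of cytochrome c oxidase, read 50.1, 48.7, 30.4 and 52.6 CPM in the H libraries, against 61.3, 92.8, 66.7 and 67.8 CPM in the M libraries. The letters did not overlap in either gene, and M2 was the highest library in both. MT-CO3, a cytochrome c oxidase subunit encoded by the mitochondrial genome, read 9509, 688, 3570.4 and 6553 CPM in H5 to H8, against 6481, 10449, 7755 and 8124 CPM in M1 to M4, with H6 and H7 low.

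Cytosolic ribosomal protein genes (72 tested, 0 positive) had a median of -0.36, and 0.15 without H6 and H7. They took 8.12, 2.04, 5.82 and 5.89% of counts in H5 to H8, against 6.96, 6.27, 6.56 and 6.86% in M1 to M4. H5 was above and the other H libraries below the M range. Of 72 members, 70 were above every M library in H5, against 21.9% of all genes. All 72 were below in H6 and in H7, and 43 in H8, against 40.8, 30.9 and 20.2%. RPL5 (ENSDARG00000015862), of the large subunit, read 1452, 651, 754 and 946 CPM in H5 to H8, against 1581, 1217, 1559.7 and 1062 CPM in M1 to M4. For RPL5, unlike most of the list, H5 lay inside the M range.

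Lysosome-rich enterocyte and ileal genes varied inside both letters. Their 24 tested members had a median of -0.09 (0.29 without H6 and H7), and 11 were positive. CUBN, the cubilin receptor for luminal protein, read 237, 0.797, 1.12 and 340.5 CPM in H5 to H8, against 3.22, 321, 4.4 and 40.5 CPM in M1 to M4. Its partner amn read 42.0, 0.199, 2.25 and 39.8 CPM in the H libraries, against 2.75, 35.05, 3.68 and 17.1 CPM in the M libraries. The ileal bile acid carrier SLC10A2 read 105, 0.299, 37.7 and 54.7 CPM in the H libraries, against 0.393, 24.4, 11.04 and 18.7 CPM in the M libraries. H5 and H8 were high and H6 low in all 3 genes, and M2 was the highest and M1 the lowest M library.

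The members with the smallest p-values behaved otherwise. The endocytic adaptor dab2 (ENSDARG00000031761) read 108, 959, 108 and 166 CPM in H5 to H8, against 6.05, 123, 5.57 and 38.2 CPM in M1 to M4, overlapping through M2. Slc51a, a subunit of the basolateral bile acid exporter (ENSDARG00000045306), read 41.2, 40.1, 43.0 and 32.4 CPM in H5 to H8, against 103, 121, 77.1 and 65.1 CPM in M1 to M4. The H libraries were close to each other and all below the M libraries (log2 fold change -1.22 ± 0.29, edgeR unadjusted p = 0.0024, adjusted p = 0.452, DESeq2 adjusted p = 0.0218).

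Junction genes differed by list and by library. Over the claudins, H7 was above every M library in 16 of 25 members and below in 4. The shares of all genes were 37.9 and 30.9%. Over the tight and adherens junction genes, H5 was below in 15 of 45 members and above in 6, and H8 below in 23 and above in 9. The shares of all genes were 19.5 and 21.9% in H5, and 20.2 and 24.4% in H8. Tight and adherens junction genes (41 tested, 18 positive) had a median of -0.23 (-0.12 without H6 and H7), and claudins (16 tested of 33, 8 positive) a median of 0.03 (-0.20 without H6 and H7). Jam2a, a junctional adhesion molecule, read 6.69, 27.7, 15.1 and 7.97 CPM in H5 to H8, against 4.24, 3.2, 2.87 and 4.16 CPM in M1 to M4, without overlap (log2 fold change 1.99 ± 0.51). The adhesion gene nectin3b read 0.793, 183, 23.8 and 8.87 CPM in the H libraries, against 1.96, 0.3, 0.988 and 1.22 CPM in the M libraries. Epcam, an epithelial adhesion molecule, read 48.2, 1718, 351 and 85.8 CPM in H5 to H8, against 41.7, 21.2, 29.1 and 52.4 CPM in M1 to M4. All 3 had the H6, H7, H8 order of the oocyte genes. The claudin cldn7b read 1.36, 25.004, 14.8 and 1.81 CPM in H5 to H8, against 1.18, 0.699, 2.42 and 3.14 CPM in M1 to M4. The claudin cldni read 1.47, 1.79, 5.91 and 1.48 CPM in the H libraries, against 1.18, 0.499, 1.44 and 1.72 CPM in the M libraries, with H7 alone high.

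Ion channels, pumps and exchangers (34 tested, 17 positive) had a median of -0.05 (0.15 without H6 and H7). Slc12a2, the basolateral sodium-potassium-chloride carrier, read 37.4, 112, 59.6 and 34.9 CPM in H5 to H8, against 23.09, 24.3, 18.2 and 28.7 CPM in M1 to M4. The potassium channel KCNK5 (ENSDARG00000012390) read 8.5, 78.6, 16.9 and 7.06 CPM in the H libraries, against 5.03, 3.79, 2.87 and 6.29 CPM in the M libraries. Neither gene overlapped, and H6 was the highest in both. Over the list, H6 was above every M library in 9 of 41 members and below in 23. The shares of all genes were 42.5% above and 40.8% below.

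Goblet and mucin genes (12 tested, 4 positive) had a median of -0.28 (-0.29 without H6 and H7). The intelectin gene itln3 read 35.9, 1850.1, 120.1 and 2.79 CPM in H5 to H8, against 152, 4.59, 65.0 and 36.2 CPM in M1 to M4. The mucin glycosyltransferase GALNT12 read 12.5, 9.07, 15.5 and 12.8 CPM in the H libraries, against 17.6, 14.9, 13.9 and 20.1 CPM in the M libraries. Itln3 spread over orders of magnitude within both letters, and GALNT12 varied little. The high itln3 level of H6 did not stand for the list. There H6 was above every M library in 3 of 13 members and below in 9. Among all genes these shares were 42.5% above and 40.8% below.

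Enteroendocrine hormones (15 tested, 9 positive) had a median of 0.09 (0.21 without H6 and H7). The list took 0.0158, 0.00799, 0.0786 and 0.0312% of counts in H5 to H8, against 0.0201, 0.0103, 0.0249 and 0.0276% in M1 to M4. H7 and H8 lay above the M range, H5 inside it and H6 below it. The list as a whole was therefore not lower in every H library, unlike CCK. Cholecystokinin, CCK, a hormone that releases bile and pancreatic juice, read 1.25, 0.498, 1.48 and 1.4 CPM in H5 to H8, against 2.75, 1.997, 2.96 and 2.54 CPM in M1 to M4, without overlap. Insl5b, an insulin-like peptide, read 2.38, 0.0996, 0.492 and 1.4 CPM in the H libraries, against 4.71, 2.1, 1.17 and 4.97 CPM in the M libraries.

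Liver messengers differed widely between libraries of the same letter. Liver plasma protein genes took 0.617, 2.57, 1.56 and 0.189% of counts in H5 to H8, against 2.99, 0.0848, 5.11 and 0.788% in M1 to M4. Of 26 tested members 2 had a positive log2 fold change, with a median of -1.32 (-2.37 without H6 and H7). Hpxa, hemopexin, read 123, 1.2, 3.23 and 20.6 CPM in H5 to H8, against 239.7, 25.3, 2556 and 428 CPM in M1 to M4. The fetuin gene ahsg2 read 32.0, 2.39, 3.87 and 8.38 CPM in the H libraries, against 89.3, 2.7, 384 and 25.7 CPM in the M libraries. Fabp10a read 239, 26.8, 39.3 and 64.5 CPM in H5 to H8, against 412, 24.5, 1726 and 186 CPM in M1 to M4. M3 was the highest of the 8 for all 3 genes. The low hpxa and ahsg2 levels of H6 did not stand for the list. H6 was above every M library in 6 of 26 members and below in 2, with a median log2 difference of 0.76. The shares of all genes were 42.5% above and 40.8% below.

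Acute phase and complement genes (23 tested, 6 positive) had a median of -0.66 (-1.98 without H6 and H7). The complement gene c7b read 28.7, 483, 124 and 8.38 CPM in H5 to H8, against 12.5, 0.899, 16.9 and 13.5 CPM in M1 to M4. The C-reactive protein gene crp2 read 0.227, 1422, 188 and 83.2 CPM in the H libraries, against 0.864, 0.0999, 6.47 and 2.03 CPM in the M libraries, in the order of the oocyte genes. H6 was the highest library for both.

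Exocrine pancreas genes took 0.802, 0.221, 1.45 and 9.7% of counts in H5 to H8, against 0.918, 0.241, 4.54 and 0.731% in M1 to M4, with H8 and M3 high. Their 26 tested members had a median of 0.80 (1.63 without H6 and H7), and 22 were positive. The protease gene ela2 read 105, 9.56, 29.3 and 3253 CPM in H5 to H8, against 87.1, 18.9, 1119.7 and 77.8 CPM in M1 to M4. The elastase gene cela1.4 read 4.53, 28.7, 49.4 and 64.0 CPM in the H libraries, against 10.4, 1.8, 23.8 and 3.85 CPM in the M libraries. H8 exceeded every M library in both, and in 23 of the 27 members that reached 1 CPM. Cela1.4 was also above the M range in H6 and H7, unlike the rest of the list. H6 and H7 were each above in 1 member, and below in 13 and 2. Among all genes 42.5, 37.9 and 24.4% were above in H6, H7 and H8, and 40.8 and 30.9% below in H6 and H7.

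Islet genes (11 tested, 9 positive) had a median of 0.52 (0.51 without H6 and H7). Insulin, ins, read 1.25, 5.38, 38.0 and 129 CPM in H5 to H8, against 3.61, 0.799, 55.8 and 82.5 CPM in M1 to M4. The proglucagon gene gcga read 26.3, 22.7, 137 and 65.4 CPM in the H libraries, against 26.7, 8.39, 61.1 and 62.7 CPM in the M libraries. ABCC8 (ENSDARG00000077007), a subunit of the beta-cell potassium channel, read 1.47, 0.598, 9.98 and 1.31 CPM in H5 to H8, against 0.236, 0.0999, 1.17 and 0.406 CPM in M1 to M4. Its paralog ABCC8 (ENSDARG00000051879) read 1.81, 4.58, 2.6 and 3.45 CPM in the H libraries, against 2.12, 0.899, 2.24 and 2.03 CPM in the M libraries. How much liver and pancreas messenger each library carried differed within both letters, and its part in any gene's difference was not tested.

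Endothelial messengers were highest in H7. The endothelium list took 0.0397, 0.0214, 0.161 and 0.0398% of counts in H5 to H8, against 0.0334, 0.0178, 0.0279 and 0.0315% in M1 to M4, and 18 of its 21 members were above every M library in H7, against 37.9% of all genes. Of 21 tested members 18 were positive, with a median of 0.96 (0.42 without H6 and H7). Stab2, a scavenger receptor of sinusoidal endothelium, read 6.35, 19.7, 54.5 and 2.55 CPM in H5 to H8, against 6.91, 1.4, 2.6 and 3.25 CPM in M1 to M4. Plvapa, of fenestrated vessels, read 172, 50.1, 385 and 122 CPM in the H libraries, against 66.1, 47.1, 62.2 and 99.8 CPM in the M libraries. Kdrl, a receptor for vascular growth factor, read 66.7, 47.1, 189 and 78.5 CPM in H5 to H8, against 49.8, 22.3, 59.4 and 45.1 CPM in M1 to M4. H7 was the highest library in all 3.

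Fibroblast and matrix genes (29 tested, 17 positive) had a median of 0.05 (-0.30 without H6 and H7). PDGFRA, a growth factor receptor of fibroblasts, read 35.4, 10.2, 117 and 32.1 CPM in H5 to H8, against 15.5, 10.09, 16.2 and 24.8 CPM in M1 to M4. TIMP2 (ENSDARG00000075261), an inhibitor of matrix proteases, read 86.1, 168, 301 and 7.31 CPM in the H libraries, against 26.6, 8.09, 26.3 and 49.1 CPM in the M libraries. H7 was the highest library in both. Over the 31 list members that reached 1 CPM, 4 in H5, 6 in H6 and 15 in H7 were above every M library. Below it were 0, 16 and 3. Among all genes these shares were 21.9, 42.5 and 37.9% above, and 19.5, 40.8 and 30.9% below.

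Enteric neuron and glia genes (17 tested, 16 positive) had a median of 0.75 (0.68 without H6 and H7). STMN2 (ENSDARG00000070537), a neuronal microtubule regulator, read 0.68, 7.97, 2.95 and 2.46 CPM in H5 to H8, against 1.18, 0.399, 0.898 and 0.71 CPM in M1 to M4. UCHL1, a deubiquitinase abundant in neurons, read 6.01, 686, 85.1 and 43.5 CPM in the H libraries, against 11.2, 7.39, 6.02 and 8.72 CPM in the M libraries. Both were highest in H6 and had the order of the oocyte genes. Over the list, H6 was above every M library in only 4 of 23 members and below in 11. H7 was above in 19 members and H8 in 14. The shares of all genes were 42.5% above and 40.8% below in H6, and 37.9 and 24.4% above in H7 and H8. The neuropeptide gene vipb read 25.8, 30.2, 208 and 24.4 CPM in H5 to H8, against 58.9, 7.49, 21.9 and 31.1 CPM in M1 to M4, with H7 the highest.

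Smooth muscle genes (20 tested, 7 positive) had a median of -0.14 (0.06 without H6 and H7). The list took 0.318, 0.0495, 0.409 and 0.232% of counts in H5 to H8, against 0.295, 0.329, 0.236 and 0.373% in M1 to M4. H5 and H7 were each above every M library in 8 of 21 members and below in 3. The shares of all genes were 21.9 and 37.9% above, and 19.5 and 30.9% below. H6 was below in 17, against 40.8%. MYH11 (ENSDARG00000100972), the smooth muscle myosin, read 98.7, 4.48, 73.5 and 23.8 CPM in H5 to H8, against 244, 369.7, 146 and 301 CPM in M1 to M4, without overlap. MYL9 (ENSDARG00000008030), a myosin light chain, read 54.7, 18.6, 119.9 and 77.4 CPM in the H libraries, against 160.1, 165, 104 and 204 CPM in the M libraries, overlapping through H7.

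Erythrocyte genes (11 tested, 7 positive) had a median of 0.25 (-0.27 without H6 and H7). Gata1a, the erythroid factor, read 1.81, 0.398, 1.05 and 0.329 CPM in H5 to H8, against 1.65, 3.99, 1.53 and 3.96 CPM in M1 to M4. The transferrin receptor gene tfr1a read 0.907, 68.6, 10.5 and 3.7 CPM in the H libraries, against 1.49, 1.3, 4.85 and 1.12 CPM in the M libraries, in the order of the oocyte genes.

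Interferon response genes had lower values in H in most members, and M2 was the highest library. Of 32 tested, 1 had a positive log2 fold change, 10 were lower at an unadjusted p under 0.05, against 1.84% of all genes, and 10 were lower without overlap, against 3.75%. The median was -0.96, and -0.69 without H6 and H7. The list took 0.121, 0.0216, 0.124 and 0.14% of counts in H5 to H8, against 0.153, 0.296, 0.16 and 0.189% in M1 to M4. The letters did not overlap in this share, with H8 and M1 the nearest.

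The antiviral gene RSAD2 read 2.61, 0.697, 2.25 and 1.64 CPM in H5 to H8, against 1.41, 74.5, 5.39 and 13.7 CPM in M1 to M4 (log2 fold change -3.71 ± 1.13). Ifit10, of a family that binds foreign RNA, read 0.453, 0.0996, 1.34 and 0.657 CPM in the H libraries, against 1.41, 21.5, 1.89 and 5.78 CPM in the M libraries. The ubiquitin-like gene isg15 read 17.2, 5.38, 30.7 and 18.1 CPM in H5 to H8, against 15.8, 196, 40.1 and 54.0 CPM in M1 to M4. M2 had the highest level of all 3, and M1 lay within the H range for RSAD2 and isg15.

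Inflammatory cytokines and chemokines (25 tested, 17 positive) had a median of 0.31 (0.01 without H6 and H7). The chemokine gene cxcl8b.1, whose product attracts neutrophils (ENSDARG00000102299), read 34.1, 11.7, 65.5 and 15.9 CPM in H5 to H8, against 304, 528, 111 and 246 CPM in M1 to M4. The letters did not overlap (log2 fold change -3.22 ± 0.70, -3.58 without H6 and H7, edgeR adjusted p = 0.452, DESeq2 adjusted p = 0.00044). Il11a, a cytokine of the interleukin-6 family, read 5.55, 7.27, 34.4 and 1.23 CPM in the H libraries, against 1.41, 0.899, 1.17 and 0.913 CPM in the M libraries, with H7 the highest. The inflammatory cytokine gene il1b read 118, 83.4, 114 and 12.2 CPM in H5 to H8, against 34.2, 6.39, 78.3 and 30.1 CPM in M1 to M4, high in H5, H6 and H7. Most of the list went the other way in H6, which was above every M library in 4 of 29 members and below in 16. H7 was above in 15 and below in 5. Among all genes these shares were 42.5% above and 40.8% below in H6, and 37.9 and 30.9% in H7.

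T and B lymphocyte genes (24 tested, 8 positive) had a median of -0.41 (0.24 without H6 and H7). Of 26 members, 12 in H5, 3 in H6, 3 in H7 and 8 in H8 were above every M library. Below it were 3, 22, 15 and 6. The shares of all genes were 21.9, 42.5, 37.9 and 24.4% above, and 19.5, 40.8, 30.9 and 20.2% below. The 2 genes given here were low in H5 and H8, unlike most of the list. The NK-lysin gene nkl.2, of an antimicrobial peptide of lymphocytes, read 7.03, 4.98, 22.6 and 0.0821 CPM in H5 to H8, against 84.0, 46.5, 25.1 and 72.6 CPM in M1 to M4, without overlap. Its relative nkl.4 read 0.113, 0.0996, 2.88 and 0.246 CPM in the H libraries, against 2.44, 6.29, 3.5 and 4.87 CPM in the M libraries, overlapping through H7 and M1.

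Macrophage and neutrophil genes (30 tested, 21 positive) had a median of 0.06 (0.29 without H6 and H7). H6 was above every M library in 7 of 32 members and below in 16. The shares of all genes were 42.5% above and 40.8% below. The cathepsin gene ctss2.1 read 49.5, 719, 108 and 84.6 CPM in H5 to H8, against 40.8, 50.1, 48.9 and 37.3 CPM in M1 to M4, highest in H6. MFAP4 (ENSDARG00000088745), a macrophage marker in zebrafish, read 19.8, 9.16, 29.5 and 16.8 CPM in the H libraries, against 7.93, 6.49, 16.4 and 6.29 CPM in the M libraries.

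MHC class II genes (11 tested, 1 positive) had a median of -0.74 (-0.23 without H6 and H7). The invariant chain gene cd74a read 2451, 21.5, 161 and 1421 CPM in H5 to H8, against 1956, 1904, 2059 and 2147 CPM in M1 to M4, so H6 and H7 were low. The class II transcription factor rfx5 read 14.8, 3.39, 7.94 and 13.6 CPM in H5 to H8, against 18.5, 14.1, 14.3 and 14.6 CPM in M1 to M4. Its partner RFXANK read 9.52, 1.2, 7.8 and 9.61 CPM in the H libraries, against 11.5, 14.3, 10.6 and 10.6 CPM in the M libraries, without overlap. The class II genes mhc2dga and mhc2dgb had no count in M4 and were present in all other wild-type libraries. Mhc2dga read 193, 1.59, 24.96 and 234 CPM in H5 to H8, against 494, 261, 578 and 0 CPM in M1 to M4. Mhc2dgb read 179, 1.2, 17.5 and 185 CPM in the H libraries, against 397, 195, 491 and 0 CPM in the M libraries. The copies are alike, so counts of either gene are uncertain.

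Circadian clock genes (29 tested, 9 positive) had a median of -0.28 (0.19 without H6 and H7). The clock activator gene bmal2 read 1.7, 34.1, 5.2 and 2.79 CPM in H5 to H8, against 2.28, 0.999, 1.53 and 3.04 CPM in M1 to M4. Cry5, a photolyase, read 15.5, 47.9, 18.1 and 17.7 CPM in the H libraries, against 12.6, 13.3, 16.2 and 14.6 CPM in the M libraries. H6 was the highest library for both. Most of the list went the other way in H6, which was above every M library in 7 of 30 members and below in 21. The shares of all genes were 42.5% above and 40.8% below.

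Growth hormone and IGF axis genes (27 tested, 12 positive) had a median of -0.15 (-0.14 without H6 and H7). IGFBP2 (ENSDARG00000052470), a binding protein for IGF, read 2.38, 1.39, 2.11 and 3.37 CPM in H5 to H8, against 17.0, 3.2, 40.1 and 6.09 CPM in M1 to M4 (log2 fold change -2.84 ± 0.78), and overlapped through H8 and M2. The receptor IGF1R (ENSDARG00000034434) read 1.47, 21.8, 4.57 and 1.4 CPM in the H libraries, against 0.628, 0.499, 1.26 and 0.71 CPM in the M libraries.

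Melanocortin and agouti genes, the pathway that the transgene of the other libraries addresses, had 8 tested members of 22, 5 of them positive, and a median of 0.27 (0.35 without H6 and H7). MGRN1 (ENSDARG00000004796), a ubiquitin ligase that acts in agouti signalling in the mouse, read 44.9, 33.0, 45.9 and 47.1 CPM in H5 to H8, against 49.3, 57.0, 51.7 and 57.9 CPM in M1 to M4. The prohormone convertase PCSK1 read 4.53, 2.39, 9.35 and 4.68 CPM in the H libraries, against 4.95, 0.899, 4.13 and 3.14 CPM in the M libraries. Differences within this list were small beside those of the oocyte genes.

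H5 had its own high genes. PCK1, the rate-limiting enzyme of gluconeogenesis, read 2932, 107, 36.2 and 136 CPM in H5 to H8, against 342, 1.9, 322 and 331 CPM in M1 to M4. The glutamate carrier SLC1A1 read 196, 0, 5.34 and 44.0 CPM in H5 to H8, against 4.48, 13.1, 10.15 and 21.7 CPM in M1 to M4. The organic anion carrier gene slc22a13a read 67.9, 0.897, 0.211 and 12.4 CPM in the H libraries, against 0.628, 2.1, 0.988 and 4.67 CPM in the M libraries. H5 was the highest wild-type library for each of them, and also for FKBP5, a co-chaperone induced by glucocorticoids. FKBP5 read 664, 65.7, 113 and 29.1 CPM in H5 to H8, against 50.9, 24.1, 66.0 and 122 CPM in M1 to M4. With scaling over all 14 libraries, FKBP5 read 117, 67.4 and 77.9 CPM in transgenic H, against 44.5, 502 and 1209 CPM in transgenic M. PCK1 read 82.0, 1004 and 198 CPM in transgenic H, against 282, 1822 and 3929 CPM in transgenic M, so that high levels of both genes also occurred in transgenic M libraries.

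Other genes separated the letters in all 8 libraries. They were chosen among the genes without overlap (2.46% of all tested higher, 3.75% lower), so the separation is a description. Tmprss15, enteropeptidase, which activates trypsinogen in the gut lumen (ENSDARG00000079393), read 47.9, 50.8, 15.5 and 142 CPM in H5 to H8, against 739.6, 1266, 443 and 983 CPM in M1 to M4. The highest H library, H8, was well below the lowest M library, M3 (log2 fold change -3.74 ± 0.73, -3.17 without H6 and H7, edgeR unadjusted p = 0.000623, adjusted p = 0.452, DESeq2 adjusted p = 1.16e-05). The galectin gene lgals9l6 read 14.1, 6.97, 15.7 and 9.94 CPM in H5 to H8, against 1257, 5371, 30.4 and 2170.0 CPM in M1 to M4. Its relative lgals9l4 read 1.02, 0.199, 0.562 and 0.246 CPM in the H libraries, against 32.6, 149, 1.62 and 59.5 CPM in the M libraries. M3 was far below the other M libraries in both, and counts within this expanded family are uncertain.

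Regulators of transcription, signalling and translation were in this set too. The stress-response factor NFE2L1 read 9.63, 4.38, 11.04 and 6.24 CPM in H5 to H8, against 35.6, 18.7, 19.4 and 29.1 CPM in M1 to M4 (log2 fold change -1.71 ± 0.40). KLF5 (ENSDARG00000015506), a factor of gut epithelial growth, read 7.93, 2.19, 13.8 and 11.01 CPM in the H libraries, against 35.98, 29.5, 27.5 and 37.3 CPM in the M libraries (log2 fold change -1.90 ± 0.51). The Notch ligand gene jag1a read 1.59, 1.3, 3.45 and 0.329 CPM in H5 to H8, against 17.2, 13.1, 8.8 and 13.6 CPM in M1 to M4. All 3 were lower in H, with H6 or H8 the lowest library. The poly-A binding protein PABPC4 read 9.07, 2.49, 9.42 and 14.7 CPM in the H libraries, against 43.8, 93.6, 25.2 and 55.5 CPM in the M libraries. PDK3 (ENSDARG00000014527), which inhibits pyruvate dehydrogenase, read 9.52, 1.49, 8.93 and 12.1 CPM in H5 to H8, against 38.5, 31.1, 25.1 and 30.6 CPM in M1 to M4.

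Hif1al, FGFR1 and EEIG1 were higher in every H library than in any M library. Hif1al, a hypoxia-inducible factor, read 197, 192, 75.4 and 59.0 CPM in H5 to H8, against 29.8, 26.5, 32.1 and 26.98 CPM in M1 to M4 (log2 fold change 2.18 ± 0.45). FGFR1 (ENSDARG00000011027), a growth factor receptor, read 20.2, 29.9, 22.1 and 15.5 CPM in the H libraries, against 9.5, 11.8, 7.004 and 10.04 CPM in the M libraries. EEIG1 (ENSDARG00000102566) read 6.12, 5.98, 4.85 and 7.89 CPM in H5 to H8, against 0.707, 2.6, 1.53 and 1.32 CPM in M1 to M4. In none of these 3 was H5 the lowest H library.

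Gig2i, of an antiviral gene family found in fish (ENSDARG00000099325), had 0 counts in all 4 H libraries and 85 counts in the M libraries, or 1.26, 1.7, 3.05 and 1.83 CPM in M1 to M4. Against a floor of 3 counts over the H group it was at least 29.3-fold lower in H. With all 14 libraries in the fit it was the 1 gene that edgeR called, lower in wild-type H (0.00537% of 18619 genes tested). The transgenic libraries held it in both letters, at 5.11, 5.94 and 4.24 CPM in transgenic H, against 3.53, 4.12 and 6.43 CPM in transgenic M.

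**Figure D5:**
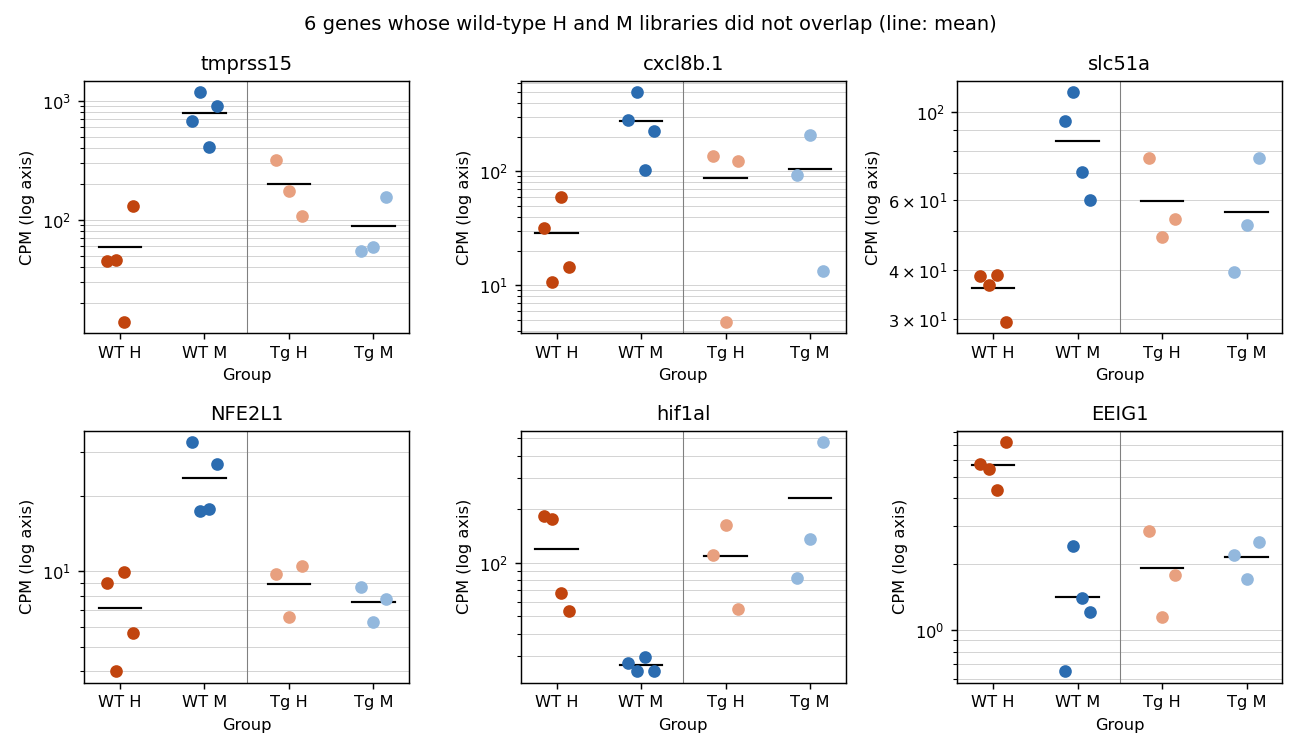
CPM on log axes of 6 genes in wild-type (WT) H and M and transgenic (Tg) H and M libraries, scaled over all 14 libraries, with 1 point per library and a line at the group mean. The 4 wild-type H points lie on one side of the 4 wild-type M points in each panel, and the transgenic H and M points overlap in each.

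Whether the letters differed by another amount in wild-type than in transgenic libraries was tested as an interaction over all 14 libraries. Of 18619 genes, 0 were called in either direction in edgeR (0%) and the smallest adjusted p was 0.101. At an unadjusted p under 0.05 there were 928 genes with a higher H effect in wild-type libraries (4.98%) and 357 with a lower one (1.92%), together 6.9%. DESeq2 called 18 genes with a higher effect (0.0967%) and 6 with a lower one (0.0322%).

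Gig2i had the smallest p of all (edgeR unadjusted p = 5.42e-06, adjusted p = 0.101). For tmprss15 the log2 difference was -4.92 ± 1.0 (edgeR unadjusted p = 0.00029, adjusted p = 0.667), and its levels were 318, 176 and 107 CPM in transgenic H, against 54.2, 59.13 and 155 CPM in transgenic M. For FGFR1 the log2 difference was 2.16 ± 0.43 (edgeR unadjusted p = 0.000238, adjusted p = 0.667), and its levels were 15.2, 7.82 and 11.3 CPM in transgenic H, against 24.3, 23.9 and 19.4 CPM in transgenic M. The transgenic libraries thus ran opposite to the wild-type ones in FGFR1 and mostly so in tmprss15, and neither difference passed the adjusted threshold.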

How the data were processed

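Poly-A RNA of zebrafish intestine was sequenced from TruSeq Stranded mRNA libraries, per the labels' protocols. The authors deposited raw read counts per gene and FPKM values. The submitters' processing notes name FastQC, STAR 2.7.3a, featureCounts 1.6.3 and edgeR, and the builds GRCm38.p6, mm10 and GRCz11 with no role stated. No source used here gives the strand setting, so reads of antisense or overlapping partners may be split. The deposited FPKM values served to recover gene lengths alone. Symbols for 29201 of 32520 identifiers came from a supplied gene table.

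Counts were filtered with filterByExpr, scaled by TMM and fitted with edgeR 4.0.16 (quasi-likelihood test, 1 mean per group, Benjamini-Hochberg adjustment, threshold 0.05) in R 4.3.3. DESeq2 1.42.0, limma 3.58.1, other scalings and filters, all 14 libraries in the fit, and fits without libraries were alternatives. The 40 lists held 1179 entries, of which 1097 matched a gene, 165 of them by a human-style symbol. The comparison, the lists and the planned fit without H6 and H7 were chosen with earlier results of these data known. The rule for named genes was the genes with the highest and lowest called fold changes, which found none, and up to 3 called members of each list or else the 2 with the smallest p, and a few that it found are not reported here. Depth was about even between the letters, as given above.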

Additional observations from a re-analysis of the deposited data

Results flagged for a closer look

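Groups of 4 libraries were searched for a library that stood apart by Dixon's criterion, a gap above 0.829 of the group's range, on the log2 CPM of each named gene and on each list's share of counts. Of 366 groups, 44 met it. Chance marks about 1 in 20 groups chosen without regard to their values, but many of these genes were chosen after their values were seen, and a group with counts in 1 library alone always meets the criterion, so the 44 cannot be read against that share.

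Among the H libraries, H6 was the lowest for RFXANK (log2 CPM 0.46), CCK (-0.56), cpt1ab (2.92), gpx1b (5.2), SRXN1 (-0.36), MGRN1 (5.05) and PDK3 (0.74), and the highest for cry5 (5.59). Its interferon response share, 0.0216% of counts, was also apart from the other H libraries. H7 was apart for cldni (log2 CPM 2.61), vipb (7.7), COX7A2 (4.94) and amh (-2). H7 also stood apart in the share of counts of the endothelium list (0.161%), the fibroblast and matrix list (0.603%), the erythrocyte list (0.0718%) and the inflammatory cytokine list (0.228%). H8 was apart for ESR1 (log2 CPM 3.44), il1b (3.63), vtg4 (12.43), vtg5 (12.3), vtg6 (11.84) and vtg7 (11.48). Its shares of counts were apart for the vitellogenins (6.18%) and the exocrine pancreas list (9.7%). No gene or share set H5 apart.

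Among the M libraries, M2 stood apart for c7b and the ABCC8 gene ENSDARG00000051879 (log2 CPM 0.11 in each), RBPMS2 (1.76) and PCK1 (1.05). M1 was apart for rfx5 (log2 CPM 4.22). M3 was apart in its shares of the exocrine pancreas list (4.54%) and the erythrocyte list (0.0316%). M4 was apart for mhc2dga and mhc2dgb, which had no count there (log2 CPM -2.48 in each). The other M values rest on few counts. They were those of zpax4, h1m, DAZL and GDF9 (log2 CPM -1.95 in M1 in each), cldnd (-1.27 in M1), DDX4 (-1.05 in M4), chia.4 (-0.77 in M4), vtg1 (-0.54 in M4), vtg6 (-1.83 in M4) and vtg5 (-0.02 in M3).

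For 5 named genes the letters separated without overlap in opposite ways in the wild-type and transgenic libraries. Of all tested genes, 0.211% did so with wild-type H higher and 0.114% with wild-type H lower. Some genes were named for their lack of overlap in wild-type libraries, so the 5 cannot be read against these shares. The log2 difference of the H against M effect, wild-type minus transgenic, was -2.63 for ESPN, 3.15 for HSD17B3, 2.86 for jam2a, 2.16 for FGFR1 and -2.57 for PDK3. The interaction test of edgeR gave an adjusted p of 0.667 for each.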

How the results depend on the processing

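No paired analysis was possible because the H and M titles share no replicate number. The count of 0 called genes in each direction held under the other scalings and filters, robust estimation, limma-voom, and without the egg coat, oocyte, vitellogenin, liver and pancreas lists. DESeq2 called 291 genes higher and 48 lower, and the fit of all 14 libraries called 1 lower. Leaving out 1 library gave 0 to 160 genes higher and 0 to 4 lower, and H5 was the library that gave 160 and 4. For the difference between genotypes, DESeq2 called 18 genes with a higher effect and 6 with a lower one, against 0 in edgeR, also without each library. Without scaling factors the median log2 fold change of all genes was 0.29, and with TMM 0.06, and the medians of 6 lists turned positive, those of fatty acid and glucose use (0.13), growth hormone (0.09), heat shock (0.06), ion channels (0.25), lysosome-rich enterocytes (0.06) and smooth muscle (0.09).

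Of 2096 pairs of a named gene and a setting, 30 reversed in sign, in 20 of 117 genes, and 41 passed the threshold under an alternative, 34 of them under DESeq2. Limma-voom gave log2 fold changes of -0.0035 for FASN, -0.86 for TIMP2, -2.92 for itln3, 0.22 for FABP2, 3.73 for mhc2dga, 3.60 for mhc2dgb, -0.0695 for vipb, -0.50 for il1b and -0.16 for FKBP5. Without H6 and H7 they were -0.22 for cldn7b, -0.26 for FASN, -1.75 for itln3, -0.38 for HSPA5, 0.85 for FABP2, -0.25 for vipb, 0.26 for chia.2, 0.14 for apobb.1 and 0.0719 for apoea. Leaving out 1 library, the range was -0.26 (without H6) to 3.8 for itln3, -0.89 to 0.27 for FABP2 (positive without H6 or H7), -0.21 (without H8) to 3.17 for CUBN and -0.0627 (without H5) to 1.42 for amn. It was -1.26 to 1.14 for ins (negative without H8, M1 or M2), -0.057 (without H7) to 0.99 for gcga, -2.76 (without H8) to 3.79 for ela2, -0.15 (without H7) to 1.82 for vipb and -1.44 (without H5) to 2.09 for PCK1. The cause of the reversals was not tested beyond naming these libraries. Of the 160 genes called without H5, 149 were below 1 CPM in every M library, where low counts limit the precision of the M level.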
